A study of Homo sapiens with 6 samples.

Results

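The YAP/TAZ-TEAD genes examined here were the transcriptional co-activators YAP1 and WWTR1 (which encodes TAZ), the DNA-binding partners TEAD1 and TEAD4, and 6 targets of the complex, CCN1, CCN2, ANKRD1, AMOTL2, AJUBA and CRIM1. These 10 genes were chosen by name from 58302 genes in the count tables, and all 10 had a count in every library and received a test. Bulk RNA sequencing had been performed on A375, a human melanoma cell line, in 6 libraries. In 3 of them the cells stably carried an empty vector, and in the other 3 they stably overexpressed HMGB2, a high mobility group protein that binds and bends DNA. The overexpressing line was made by lentiviral transduction and antibiotic selection, and no second line of either kind is in the labels. The reporting form of the study calls the replicates technical, and p-values then measure the spread between pellets of a line and not between independent transductions.

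YAP and TAZ are co-activators without a DNA-binding domain of their own, and they reach their target genes by binding TEAD transcription factors. The Hippo kinases, STK3 and STK4 with their adaptor SAV1 and below them LATS1 and LATS2 with MOB1A and MOB1B, phosphorylate YAP and TAZ, which then stay in the cytoplasm or are degraded. On stiff substrates, in spread cells and under actin tension, YAP and TAZ enter the nucleus and targets such as CCN1, CCN2 and ANKRD1 are transcribed, which makes the pathway a common readout of mechanical state, and in melanoma it has been linked to invasive, dedifferentiated cells. Transcript counts report the output of the pathway and the supply of its parts, and do not measure where the proteins were or whether they were phosphorylated.

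Between 45925053 and 56755212 reads were assigned to genes per library. HMGB2 (hg38 chromosome 4, 173331376 to 173334432) had normalized counts, which are reads divided by the DESeq2 size factor of the library, of 7250, 7729 and 7562 with the empty vector and 15095, 16848 and 14609 with overexpression. The groups did not overlap, and HMGB2 was 2.07-fold higher (log2 fold change 1.05, standard error (SE) 0.10, adjusted p = 4.4e-22 by DESeq2). The third replicate of each group stood apart by gene length. In empty vector replicate 3, the median log2 difference from replicates 1 and 2 was 0.11 for the 5529 genes with the shortest exons and -0.10 for the 5529 with the longest, and in overexpression replicate 3 these medians were 0.06 and -0.06. Overexpression replicate 3 also held the largest share of multimapped reads, 10.6% against 2.58% to 4.89% in the other libraries. For several results that rest on these libraries, values with and without them are therefore given, and their part in each result was not tested.

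The labelled cell type was checked against markers. Of the melanocyte lineage, MITF (normalized counts 1442 ± 54.5 with the empty vector and 1627 ± 129 with overexpression; mean ± SD, n = 3) and S100B (3443 ± 93.4 and 3714 ± 146) were present. The pigment genes MLANA, TYR and DCT had at most 11 reads in any library and TYRP1 7 to 24. SOX10 had 0 reads and PMEL 50 to 68 in the count column used, in which reads shared with a gene on the opposite strand are set aside. The columns that separate the strands held reads for SOX10, and PMEL kept 3.37% of its reads from them, so the level of neither can be read here. Of 8 fibroblast markers none was called, and their summed normalized counts were 3937 to 5954 with the empty vector and 5498 to 7161 with overexpression. Of 5 keratinocyte markers 4 were tested and none was called, with sums of 4585 to 4966 and 4544 to 5092, and KRT1 was at 0. KRT10 alone gave 4035 to 4411 and 3816 to 4092 of these sums, which therefore say little of KRT5 and DSG3. KRT5 was at 5.05 to 279 with the empty vector and 200 to 289 with overexpression, and DSG3 at 1.77 to 9.66 and 7.88 to 57.2. Leukocyte sums were 493 to 522 and 527 to 701, of which LYZ alone gave 488 to 521 and 526 to 701, with PTPRC at 0 and CD68 at 0.299% of its strand-separated reads. Of 4 endothelial markers only KDR was called, lower, and 2 of the 4 had log2 fold changes above 0. In bulk RNA of a cell line, fewer cells expressing a marker and less of its RNA per cell cannot be told apart.

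Of the 10 genes, 1 was called higher (WWTR1) and 1 lower (AJUBA) with HMGB2 overexpression, a call being a DESeq2 Benjamini-Hochberg adjusted p under 0.05 over all 18836 genes tested. Over all genes, 2.29% were called higher and 2.64% lower. A count of 1 in 10 is the smallest above 0, and no statement about the genes as a group was drawn from it. The median log2 fold change of the 10 genes was -0.07, against 0.00 over all genes, with 3 values above 0 and 7 below. WWTR1 was also the only one of the 10 whose overexpression libraries all lay above the empty vector libraries, and AJUBA the only one whose overexpression libraries all lay below. Over all genes tested, 11.1% were separated in the first way and 10.7% in the second.

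**Figure D1:**
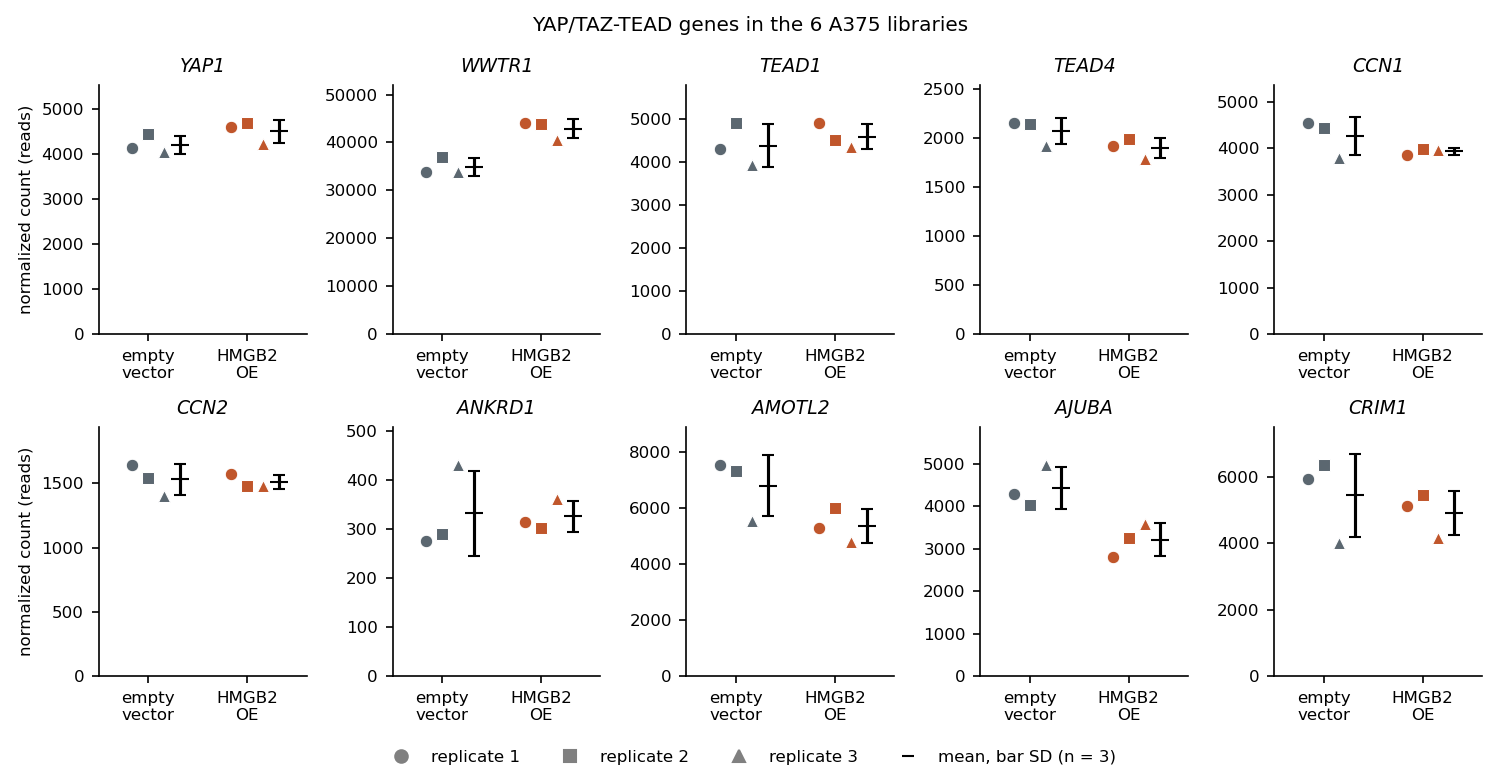
Normalized counts (vertical axes, reads, each from 0) of the 10 genes in the 3 empty vector (grey) and 3 HMGB2 overexpression (orange) libraries, with symbols for the replicate number and a bar for the mean ± SD (n = 3). The groups do not overlap for WWTR1, between 33838 and 37019 against 40612 to 44156, or for AJUBA, between 4029 and 4988 against 2803 to 3578; for the other 8 genes they overlap.

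The co-activators were considered first. WWTR1 (ENSG00000018408; chromosome 3, 149517235 to 149736714, minus strand) had normalized counts of 33902, 37019 and 33838 with the empty vector and 44156, 43842 and 40612 with HMGB2 overexpression. Every overexpression library exceeded every empty vector library. The mean rose from 34920 ± 1819 to 42870 ± 1962 (n = 3), a 1.23-fold difference (95% interval 1.08 to 1.40) which on the log2 scale was 0.30 (SE 0.09), and the DESeq2 adjusted p was 0.0401.

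The direction for WWTR1 was the same under all 14 alternative settings, and the call was kept in 5 of them. With edgeR in place of DESeq2 the log2 fold change was 0.29 and the adjusted p 0.11. Leaving out 1 library gave values from 0.27 to 0.34, and the DESeq2 adjusted p was 0.509, 0.408 and 0.162 without overexpression replicates 1, 2 and 3, and 0.489, 0.13 and 0.0118 without empty vector replicates 1, 2 and 3. The reads of WWTR1 also depended on the count column. The antisense RNA WWTR1-AS1 shares 756 exon bases with it on the opposite strand, and WWTR1 kept 77.7% of the reads that the strand-separated columns assigned to it, with the lowest share, 73.3%, in empty vector replicate 1. On the sum of those columns its log2 fold change was 0.24 (adjusted p = 0.131 by DESeq2).

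YAP1 (ENSG00000137693; chromosome 11, 102110447 to 102233424, plus strand) was not called. Its normalized counts were 4117, 4427 and 4042 with the empty vector and 4592, 4690 and 4210 with overexpression. The lowest overexpression library lay within the empty vector range. The means were 4195 ± 205 and 4497 ± 254, and the log2 fold change was 0.10 (SE 0.10, 95% interval -0.10 to 0.30; adjusted p = 0.763 by DESeq2), an interval that overlaps that of WWTR1, 0.11 to 0.48. YAP1 kept 73.2% of its strand-separated reads, an unnamed antisense gene shares 628 of its exon bases, and YAP1 was called in none of the 14 alternatives.

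Between the co-activators, WWTR1 was the more abundant transcript per length. On the RPKM scale, which divides reads by the merged exon length and by the assigned reads of the library, WWTR1 had a median of 91.1 over the 6 libraries (79.1 to 105) and YAP1 a median of 13.5 (12.5 to 14.8). Within a library, the ratio of WWTR1 to YAP1 on this scale was 6.22, 6.32 and 6.33 with the empty vector and 7.27, 7.06 and 7.29 with overexpression. The ratios did not overlap between groups, and with 3 libraries against 3 an exact permutation test cannot give a p under 0.1. For both genes, reads shared with antisense partners were set aside, which the ratio does not correct for. WWTR1 kept 73.3%, 78.1% and 77.1% of its strand-separated reads with the empty vector and 79.8%, 77.7% and 79.7% with overexpression. On the sum of those columns the log2 fold changes were 0.24 for WWTR1 and 0.12 for YAP1, against 0.30 and 0.10 in the column used. The genes thus lay closer together on that sum.

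The TEAD factors, through which YAP and TAZ bind DNA, gave no call among the members. TEAD1 (chromosome 11, 12674421 to 12944737) had normalized counts of 4311, 4916 and 3933 with the empty vector and 4921, 4523 and 4343 with overexpression. TEAD4 (chromosome 12, 2959330 to 3040676) had 2158, 2139 and 1919 with the empty vector and 1922, 1991 and 1785 with overexpression. The groups overlapped for both genes, and replicate 3 was the lowest library of its group for both genes in both groups. The log2 fold change was 0.07 for TEAD1 (95% interval -0.17 to 0.30, adjusted p = 0.896 by DESeq2) and -0.13 for TEAD4 (-0.34 to 0.09, adjusted p = 0.708). Changes beyond these intervals, which rest on the spread between 3 libraries per group, were not seen in either gene.

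**Figure D2:**
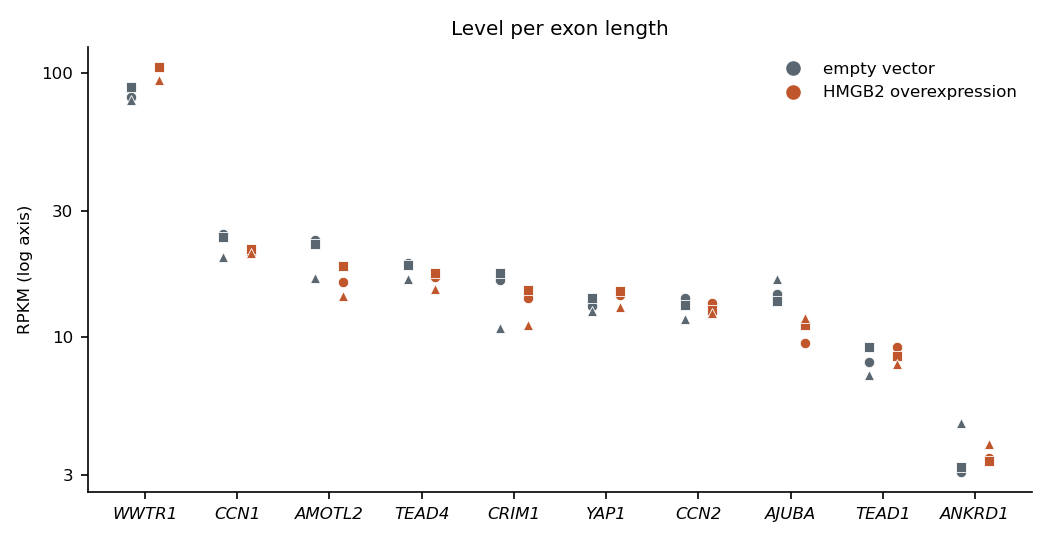
Level of each of the 10 genes in RPKM (reads scaled to merged exon length and to the assigned reads of the library, vertical log axis), with 1 point per library, grey for empty vector and orange for HMGB2 overexpression (circle, square and triangle for replicates 1, 2 and 3). WWTR1, with a lowest library of 79.1, lies above every other gene, and ANKRD1, with a highest library of 4.71, below every other gene.

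The order of the levels per length placed targets and factors together. After WWTR1 came CCN1 (median RPKM 21.2, range 20.0 to 24.6), AMOTL2 (17.6, 14.3 to 23.2), TEAD4 (17.1, 15.2 to 18.9), CRIM1 (14.5, 10.8 to 17.4), YAP1 (13.5), CCN2 (12.9, 11.7 to 14.1) and AJUBA (12.7, 9.45 to 16.6). Each of these overlapped its neighbour in the order. TEAD1 (8.24, 7.18 to 9.14) lay below all of them, and ANKRD1 (3.42, 3.06 to 4.71) was the lowest without overlap with TEAD1. Of the TEAD genes outside the 10, TEAD2 had a median RPKM of 9.56 (7.58 to 12.1) and TEAD3 of 3.40 (2.80 to 4.38). In this count column TEAD4 was thus the most abundant TEAD transcript per length in every library. TEAD2 kept 71.7% of its strand-separated reads and TEAD4 100%, while YAP1, CCN2 and CRIM1 kept 73.2%, 77.9% and 90.1%. The order therefore holds for the column used and was not tested on the others.

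The 6 targets were then examined. CCN2 and ANKRD1 are classical targets whose promoters hold TEAD sites, and AMOTL2 and AJUBA both act back on the pathway. For these genes, the 250 bases before the annotated start are printed 5' to 3' on the gene's strand, from the RefSeq promoter table on GRCh38.p14. The letters show neither binding nor an action on the pathway. The TEAD core GGAATG, searched on both strands, is in capitals. CCN2 (chr6:131951373-131951622, minus strand) held 3 cores, starting 169, 104 and 95 bases before the start, ANKRD1 (chr10:90921088-90921337, minus strand) held 2, the second start site of AMOTL2 (chr3:134374448-134374697, minus strand) held 1 and the first start site of AJUBA (chr14:22982552-22982801, minus strand) held none. The other start sites of these genes, which are not printed, went the other way, with no core at the first of AMOTL2 and 1 core, 59 bases before the start, at the second of AJUBA:
CCN2: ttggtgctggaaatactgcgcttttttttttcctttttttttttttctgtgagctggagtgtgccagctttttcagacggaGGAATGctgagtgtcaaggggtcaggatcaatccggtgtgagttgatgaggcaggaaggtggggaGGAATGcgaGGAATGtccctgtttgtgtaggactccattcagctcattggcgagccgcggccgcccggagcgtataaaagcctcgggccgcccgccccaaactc
ANKRD1: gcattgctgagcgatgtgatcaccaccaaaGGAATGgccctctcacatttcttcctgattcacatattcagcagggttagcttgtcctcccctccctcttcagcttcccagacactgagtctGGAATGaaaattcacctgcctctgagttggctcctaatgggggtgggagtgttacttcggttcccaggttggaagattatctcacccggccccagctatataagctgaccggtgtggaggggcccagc
AMOTL2: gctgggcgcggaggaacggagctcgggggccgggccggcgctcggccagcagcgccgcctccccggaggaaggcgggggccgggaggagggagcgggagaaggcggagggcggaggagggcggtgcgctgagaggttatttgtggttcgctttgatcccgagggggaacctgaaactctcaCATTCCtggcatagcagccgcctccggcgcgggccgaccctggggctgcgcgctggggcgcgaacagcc
AJUBA: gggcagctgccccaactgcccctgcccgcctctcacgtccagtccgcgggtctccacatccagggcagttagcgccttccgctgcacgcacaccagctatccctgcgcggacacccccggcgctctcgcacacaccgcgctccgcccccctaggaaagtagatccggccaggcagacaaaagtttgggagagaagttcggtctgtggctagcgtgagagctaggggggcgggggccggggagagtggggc

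The core occurred in 4175 of 35116 promoter windows of this length (11.9%), and 3 or more copies occurred in 29 (0.0826%). Windows were found for 6 of the 10 genes, and TEAD1, TEAD4, CCN1 and CRIM1 had no entry. Among the others, YAP1 held 1 core and neither of the 2 windows of WWTR1 held any. The AP-1 core TGANTCA, searched on both strands, was present in 6.57% of windows and, among these genes, once in ANKRD1. A match is a description of letters in this window, and no match says nothing of binding elsewhere.

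All 6 targets had log2 fold changes below 0, from -0.47 to -0.02 with a median of -0.13, but only AJUBA was called. Over all 18836 genes tested, 9336 values lay below 0, and CCN2 and ANKRD1 changed sign when single libraries were left out. AJUBA (ENSG00000129474; chromosome 14, 22971177 to 22982551, minus strand) encodes a LIM-domain protein that binds LATS kinases and restrains them. Its normalized counts were 4293, 4029 and 4988 with the empty vector and 2803, 3252 and 3578 with HMGB2 overexpression. Every overexpression library was below every empty vector library, and within each group replicate 3 was the highest. The mean fell from 4437 ± 496 to 3211 ± 389 (n = 3), 1.38-fold lower, with a log2 fold change of -0.47 (SE 0.14, 95% interval -0.73 to -0.20; adjusted p = 0.0174 by DESeq2).

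AJUBA stayed below 0 under all 14 alternatives, between -0.55 and -0.37, and was called in 10. The call was lost with edgeR (adjusted p = 0.0855), and with DESeq2 without overexpression replicate 1 (adjusted p = 0.291), without overexpression replicate 2 (0.125) and without empty vector replicate 1 (0.108). It was kept without empty vector replicate 3, where the log2 fold change was -0.37 (adjusted p = 0.00708 by DESeq2), and in replicates 1 and 2 alone at -0.46 (adjusted p = 3.8e-06). Of the 50-base words in its transcripts, 0.0169% occurred in another gene, so its reads were nearly all unique to it.

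AMOTL2 (ENSG00000114019; chromosome 3, 134355347 to 134375479, minus strand) encodes an angiomotin-family scaffold that holds YAP at cell junctions. It had normalized counts of 7548, 7304 and 5535 with the empty vector and 5267, 6002 and 4792 with overexpression. Empty vector replicates 1 and 2 lay above every overexpression library, and empty vector replicate 3 lay among them. The means were 6795 ± 1099 and 5354 ± 610, and the log2 fold change was -0.34 (SE 0.15, 95% interval -0.64 to -0.05). AMOTL2 was not called (adjusted p = 0.219 by DESeq2), although it was 1 of 3 members, beside WWTR1 and AJUBA, with an unadjusted p under 0.05. Without empty vector replicate 3 the log2 fold change was -0.47 (adjusted p = 0.000148 by DESeq2), and in replicates 1 and 2 alone it was -0.40 (adjusted p = 4.68e-06). Without overexpression replicate 3 it was -0.27 (adjusted p = 0.763 by DESeq2). With a term for the third replicates of both groups it was -0.34 (adjusted p = 7.87e-05 by DESeq2). A share of 2.06% of its 50-base words occurred in other genes, mostly in the pseudogene RPL39P5, which shares 187 of its exon bases.

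The secreted matricellular proteins CCN1 and CCN2 (also known as CYR61 and CTGF) are the most widely used readouts of YAP and TAZ activity. CCN1 (ENSG00000142871; chromosome 1, 85580761 to 85584589, plus strand) had normalized counts of 4553, 4431 and 3791 with the empty vector and 3849, 3985 and 3972 with overexpression. The overexpression libraries lay close together (SD 75.2) between empty vector replicate 3 and empty vector replicates 1 and 2. The log2 fold change was -0.11 (SE 0.11, 95% interval -0.33 to 0.10; adjusted p = 0.75 by DESeq2), and in replicates 1 and 2 alone it was -0.20 with an adjusted p of 0.0348.

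CCN2 (ENSG00000118523; chromosome 6, 131948176 to 131951372, minus strand) had 1647, 1545 and 1401 with the empty vector and 1576, 1480 and 1482 with overexpression, as normalized counts. The overexpression libraries all lay inside the empty vector range. With means of 1531 ± 124 and 1513 ± 54.7 and a log2 fold change of -0.02 (95% interval -0.24 to 0.20, adjusted p = 0.979 by DESeq2), it was the member nearest to 0. Its direction changed without empty vector replicate 1, to 0.04. CCN2 kept 77.9% of its strand-separated reads, between 76.6% and 79.2% across libraries.

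ANKRD1 (ENSG00000148677; chromosome 10, 90912096 to 90921087, minus strand) encodes an ankyrin-repeat protein induced by stretch in muscle. Its normalized counts were 275, 289 and 431 with the empty vector and 313, 302 and 361 with overexpression. The overexpression libraries lay between empty vector replicates 1 and 2 and empty vector replicate 3. The log2 fold change was -0.03 with the widest interval of the 10 genes, -0.42 to 0.37 (adjusted p = 0.984 by DESeq2). It was 0.21 without empty vector replicate 3 and 0.13 in replicates 1 and 2 alone, and was called in neither fit.

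CRIM1 (ENSG00000150938; chromosome 2, 36355778 to 36551135, plus strand) encodes a transmembrane protein with cysteine-rich repeats that binds bone morphogenetic proteins. Its normalized counts were 5952, 6374 and 4011 with the empty vector and 5134, 5446 and 4169 with overexpression. Replicate 3 was the lowest of its group in both groups, and the groups overlapped. The log2 fold change was -0.15 (SE 0.18, 95% interval -0.51 to 0.21; adjusted p = 0.829 by DESeq2). Without empty vector replicate 3 it was -0.33 (adjusted p = 0.0277 by DESeq2), and in replicates 1 and 2 alone -0.22 (adjusted p = 0.0148). Other libraries moved it towards 0, to -0.02 without empty vector replicate 2, -0.08 without empty vector replicate 1 and -0.04 without overexpression replicate 3, and without overexpression replicate 2 it was -0.23, with no call in any of these fits.

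**Figure D3:**
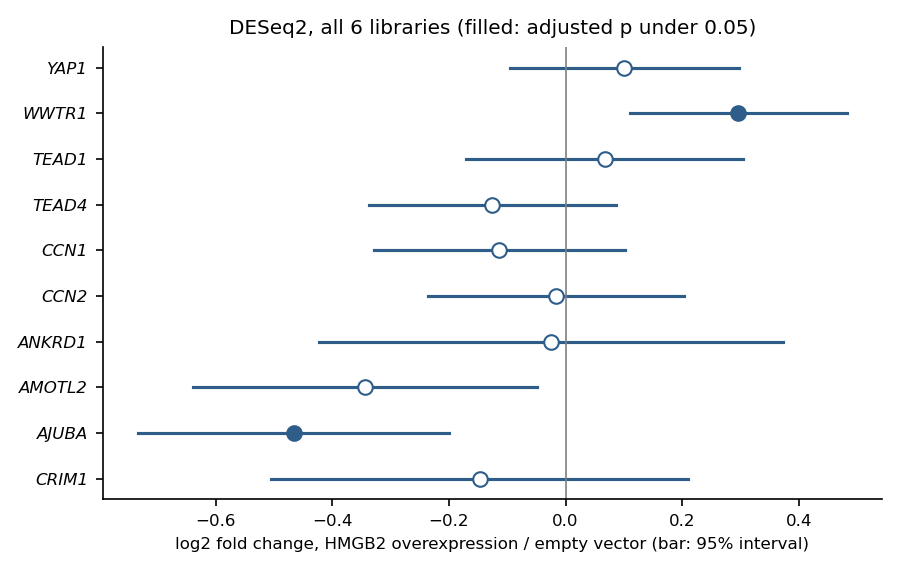
Log2 fold change (horizontal axis, HMGB2 overexpression over empty vector, DESeq2, all 6 libraries) of each of the 10 genes with its 95% interval as a bar, filled where the adjusted p was under 0.05. WWTR1 at 0.30 and AJUBA at -0.47 are filled, and among the open points only the bar of AMOTL2 leaves out 0.

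Several of these values rested on empty vector replicate 3, whose distance from the other empty vector libraries differed from gene to gene. On the log2 scale, its normalized counts differed from the mean of replicates 1 and 2 by 0.61 for ANKRD1 and 0.26 for AJUBA, by -0.07 and -0.08 for WWTR1 and YAP1, and by -0.42 and -0.62 for AMOTL2 and CRIM1. Overexpression replicate 3 differed from its group in the same directions for these targets, by 0.23 for ANKRD1, 0.24 for AJUBA, -0.23 for AMOTL2 and -0.34 for CRIM1. The part of gene length or RNA quality in these values was not tested.

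Counts of called members moved accordingly with the libraries used. Without empty vector replicate 3, DESeq2 called 1 member higher and 3 lower (AMOTL2, AJUBA and CRIM1), against 8.31% higher and 9.46% lower of all genes tested. With a term for the third replicates it called 1 higher and 2 lower (AMOTL2 and AJUBA), against 8.71% and 8.61% of all genes. In replicates 1 and 2 alone it called 1 higher and 4 lower (CCN1, AMOTL2, AJUBA and CRIM1), against 8.01% and 9.44%. WWTR1 was the member called higher in each of these fits. The share of all genes called rose as well in these fits, and the members lower were 2 to 4 of 10 in each.

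**Figure D4:**
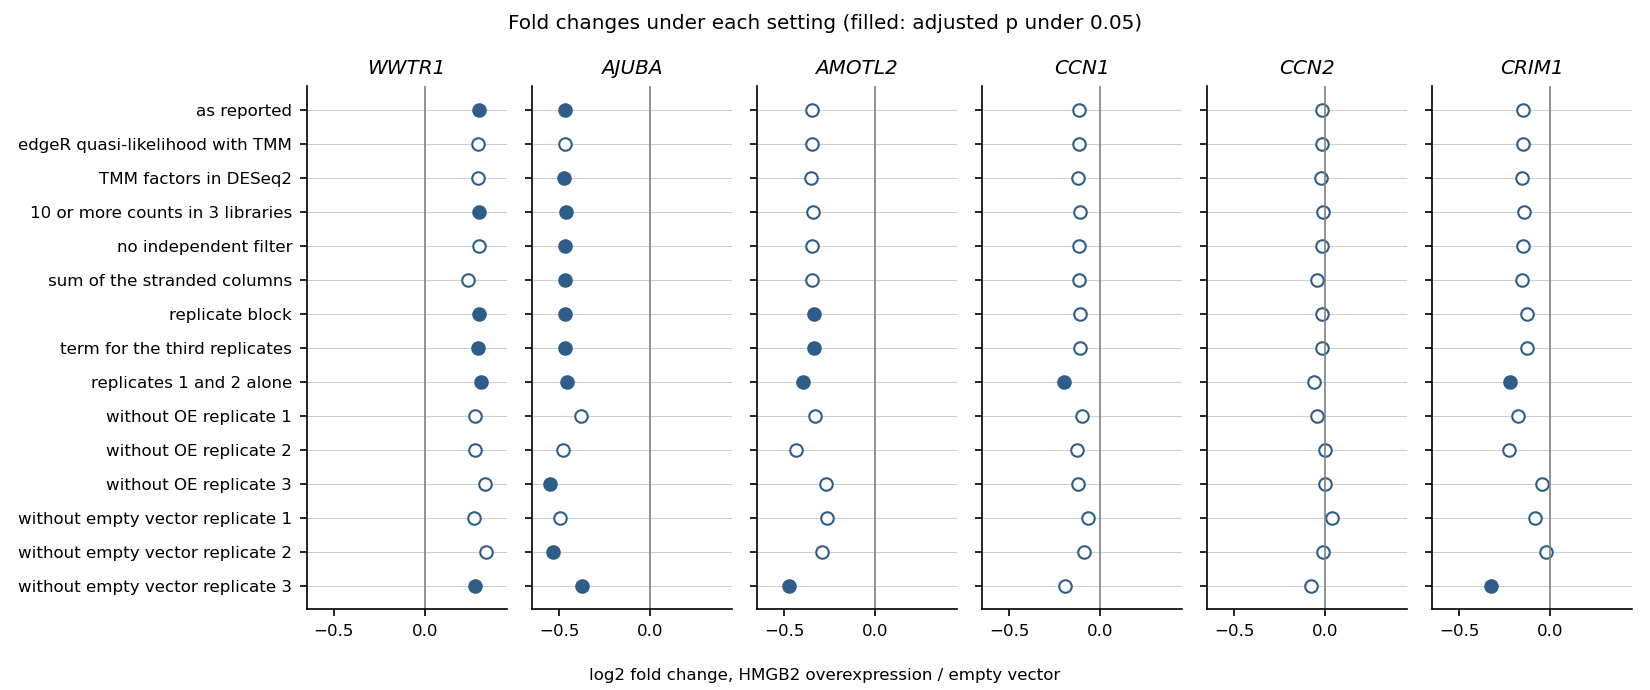
Log2 fold change (horizontal axes, HMGB2 overexpression over empty vector) of WWTR1 and 5 targets as reported and under each of 14 alternative settings (vertical axis), filled where the adjusted p was under 0.05. WWTR1 stays above 0 and is filled in 5 of the alternatives, AJUBA stays below 0 and is filled in 10, and AMOTL2, CCN1 and CRIM1 stay below 0 and are filled in 4, 1 and 2.

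A list of 34 genes, called Hippo regulators here, was examined next, and all of them were tested. It also holds TEAD2, TEAD3 and VGLL1 to VGLL4, so its counts do not describe the upstream side of the pathway alone. TEAD2 was called higher and NF2 lower (2.29% and 2.64% of all genes were called in these directions), and 32 were not called. The median log2 fold change of the list was 0.02. TEAD2, a TEAD factor, had normalized counts of 1347, 1136 and 1317 with the empty vector and 1518, 1726 and 1864 with overexpression. The groups did not overlap, and the mean rose from 1266 ± 114 to 1702 ± 174 (log2 fold change 0.43, SE 0.13, adjusted p = 0.0269 by DESeq2). NF2 encodes Merlin, a membrane-linked activator of LATS kinases, and had 4058, 3976 and 3404 with the empty vector and 2846, 3148 and 2958 with overexpression. Again without overlap, the mean fell from 3813 ± 356 to 2984 ± 153 (log2 fold change -0.35, SE 0.11, adjusted p = 0.0412 by DESeq2).

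Both calls were close to the threshold. With edgeR the adjusted p was 0.0925 for TEAD2 and 0.1 for NF2. Leaving out any library other than empty vector replicate 3 ended both calls. For TEAD2 the DESeq2 adjusted p was then 0.0595, 0.231 and 0.339 without overexpression replicates 1, 2 and 3, and 0.117 and 0.301 without empty vector replicates 1 and 2. For NF2 these values were 0.45, 0.165, 0.296, 0.463 and 0.326. Without empty vector replicate 3 they were 0.00265 for TEAD2 and 8.0e-05 for NF2. NF2 was also lost without the independent filter (adjusted p = 0.0717 by DESeq2), and TEAD2 kept 71.7% of its strand-separated reads.

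The core kinases gave no call, with log2 fold changes of -0.11 for STK3, -0.13 for STK4, -0.01 for LATS1 and -0.03 for LATS2, and 0.04 for the adaptor SAV1. The LATS cofactor MOB1A, with AMOTL1 the highest of the list in mean normalized count, had a log2 fold change of 0.20 (adjusted p = 0.555 by DESeq2) and was called in 4 of 14 alternatives, among them the fit without empty vector replicate 3 (0.33, adjusted p = 0.00722). It was 0.12 without empty vector replicate 1 and 0.13 without overexpression replicate 3, with no call in either. The angiomotin AMOTL1, with normalized counts of 11446, 13043 and 6886 with the empty vector and 11468, 12340 and 9274 with overexpression, had a log2 fold change of 0.08 (adjusted p = 0.939). In AMOTL1, replicate 3 was the lowest in both groups, as in AMOTL2. Besides TEAD2, the groups did not overlap for VGLL3, TAOK1, FRMD6 and AMOT, which lay higher in all 3 overexpression libraries with log2 fold changes of 0.83, 0.26, 0.28 and 0.27 and DESeq2 adjusted p of 0.0849, 0.225, 0.13 and 0.198. That made 5 of 34 without overlap upward, against 11.1% of all genes, and 1 of 34 (NF2) downward, against 10.7%.

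A second list held 30 other YAP/TAZ targets, taken from a published signature and from common usage. Of these, 2 were called higher (FSTL1 and TGFBR2), 4 lower (GADD45A, AXL, ITGB2 and FJX1) and 24 were not called, against 2.29% higher and 2.64% lower over all genes, with a median log2 fold change of 0.03. Above 0 were 16 values and below 0 were 14. FSTL1, a secreted follistatin-like glycoprotein, had normalized counts of 549, 517 and 669 with the empty vector and 1324, 1079 and 1302 with overexpression. The groups were far apart, and the mean rose from 578 ± 79.9 to 1235 ± 136 (log2 fold change 1.10, SE 0.15, adjusted p = 1.1e-10 by DESeq2).

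Among the targets called lower, AXL was the most abundant. AXL, a receptor tyrosine kinase that marks dedifferentiated melanoma cells, had normalized counts of 32516, 32382 and 24517 with the empty vector and 19132, 19646 and 16596 with overexpression. The groups did not overlap even with empty vector replicate 3 included, and the mean fell from 29805 ± 4580 to 18458 ± 1633, 1.61-fold lower (log2 fold change -0.69, SE 0.14, adjusted p = 8.58e-05 by DESeq2). GADD45A, a stress-induced regulator of growth arrest, had 5420, 5021 and 4455 with the empty vector and 3053, 3340 and 2636 with overexpression, again without overlap (log2 fold change -0.72, SE 0.13, adjusted p = 5.32e-06). FSTL1, AXL and GADD45A were called in all 14 alternatives, unlike any of the 10 members.

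The other 3 calls in this list were less stable. ITGB2, the integrin beta chain of leukocytes, had normalized counts of 171, 144 and 149 against 70.9, 68.9 and 95.7 (log2 fold change -0.98, SE 0.23, adjusted p = 0.000781 by DESeq2) and was called in 11 alternatives, with adjusted p of 0.0545, 0.0514 and 0.0735 without overexpression replicates 1 and 2 and empty vector replicate 1. TGFBR2, a receptor for TGF-beta, had 2223, 2361 and 2360 against 3006, 2911 and 2832 (log2 fold change 0.33, SE 0.09, adjusted p = 0.0124). FJX1, a secreted homologue of Drosophila four-jointed, had 2055, 1853 and 2141 against 1592, 1609 and 1456 (log2 fold change -0.38, SE 0.11, adjusted p = 0.0208). None of these 3 overlapped between groups. TGFBR2 and FJX1 were each called in 8 alternatives, and both calls were lost with edgeR (adjusted p = 0.0742 and 0.0792) and when any library other than empty vector replicate 3 was left out, with DESeq2 adjusted p of 0.151 to 0.387 and 0.053 to 0.305.

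MYOF, second to AXL among the targets in mean normalized count though not in reads per length, was not called, with a log2 fold change of -0.18 (adjusted p = 0.709 by DESeq2). It had normalized counts of 15591, 16352 and 11273 with the empty vector and 13081, 13711 and 11292 with overexpression, and it was called lower without empty vector replicate 3 (-0.33, adjusted p = 0.00776). The log2 fold change was -0.08 without empty vector replicate 2 and -0.11 without overexpression replicate 3, neither with a call.

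**Figure D5:**
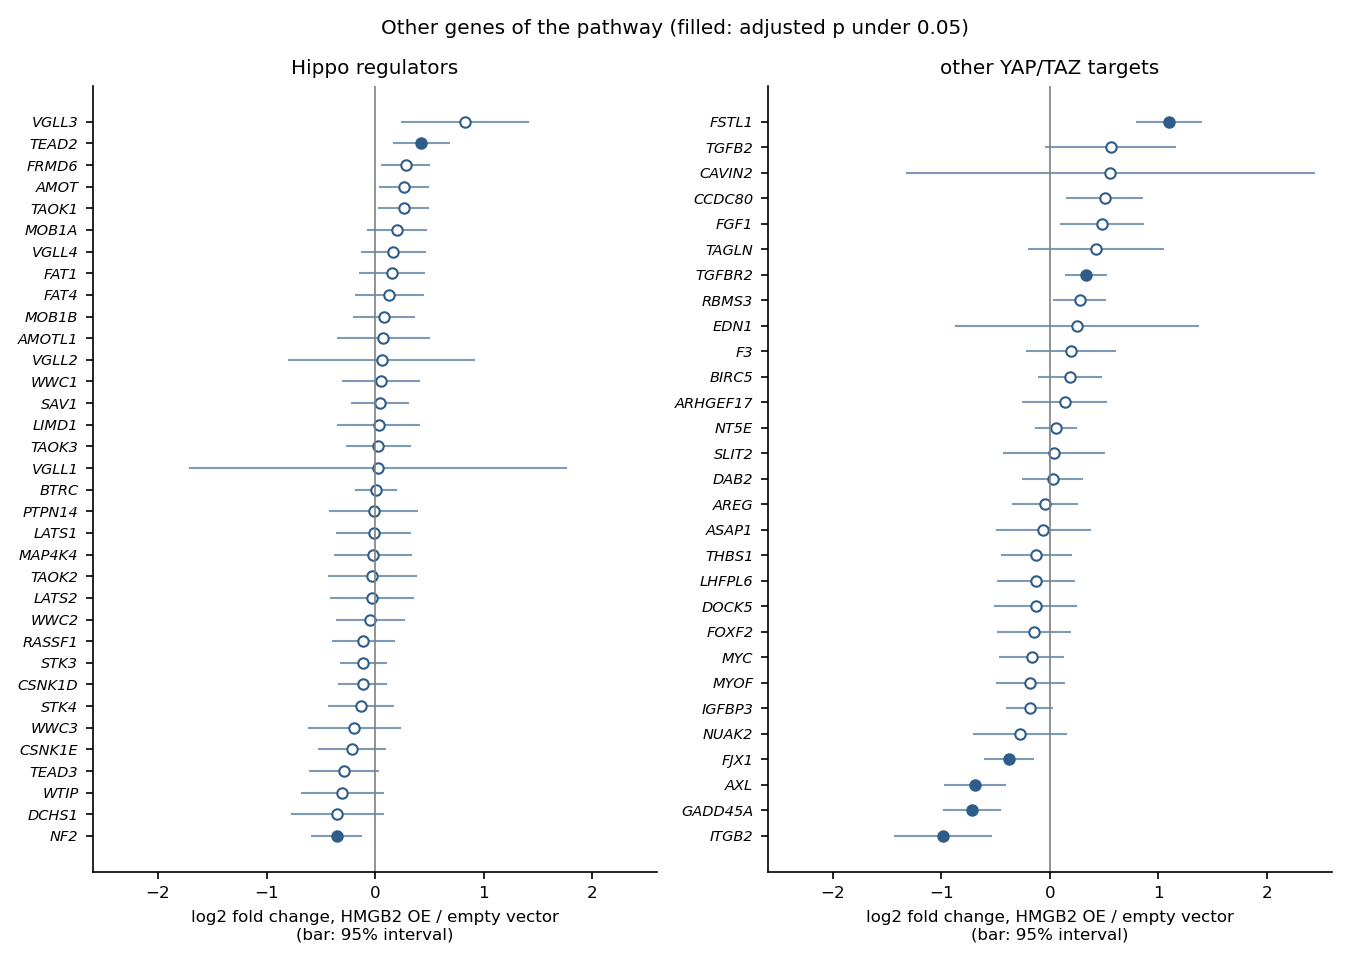
Log2 fold change (horizontal axes, HMGB2 overexpression over empty vector, DESeq2) with its 95% interval as a bar for 34 Hippo regulators (left) and 29 of the 30 other YAP/TAZ targets (right), filled where the adjusted p was under 0.05. TEAD2 and NF2 are filled among the regulators, and FSTL1, TGFBR2, FJX1, AXL, GADD45A and ITGB2 among the targets, on both sides of 0.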

How the data were processed

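RNA sequencing libraries of A375 cells (3 empty vector and 3 HMGB2 overexpression) had been prepared from poly(A) RNA. Per the submitters' processing notes, reads were handled with bcl2fastq 2.20, FastQC, Trimmomatic and STAR on GRCh38; the aligner version and annotation release were not given in the sources used here. The authors deposited raw counts per gene for each library, without normalization, in 1 column for either strand (used here) and 2 strand-separated columns, with 4 summary lines, which entered neither the library sizes nor the fits. A read in exons shared with a gene on the opposite strand is counted for neither gene in the first column, and a read mapping to several places is counted for none. Such ambiguous reads made up 10.7% to 11.4% of reads and multimapped reads 2.58% to 10.6%, so genes with antisense partners may be undercounted. The summed strand-separated columns can count a shared read for both genes, so the shares kept are not a measured loss. Counting error was not compared with the spread between libraries.

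Symbols and hg38 coordinates came from GENCODE 44 (57532 of 58302 IDs matched). The test was DESeq2 1.42.0 under R 4.3.3 (Wald test on the group, default parameters, unshrunken fold changes) over all genes. An adjusted p was given to 18836 of the 32925 genes with any count. Words of 50 bases were compared between annotated transcripts, and RPKM used merged exons and assigned reads. Promoter sequences came from the RefSeq table. Alternatives were edgeR 4.0.16 (quasi-likelihood, TMM), TMM factors in DESeq2, 10 or more counts in 3 libraries, no independent filter, the sum of the strand-separated columns, the replicate number as a block, a term for the third replicates, replicates 1 and 2 alone, and leaving out each library. The fit was also run on simulated counts with changes larger than those of the members and no third-replicate effect. That run does not bear on the calls of the members. The members, lists and alternatives were chosen with earlier results of these data known. Genes named were HMGB2, the members, every called gene of each list (at most 8 by adjusted p) and the 2 genes of each list with the highest mean; others named were picked by non-overlap, or by role in the kinase core or level of the TEAD family. 1 gene counted in the list of other targets is not reported here by name.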

Additional observations from a re-analysis of the deposited data

How the results depend on the processing

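HMGB2 was called under all 14 alternatives, with log2 fold changes of 0.98 to 1.09. For the 10 members over 14 alternatives, 114 of 140 values kept their direction and their side of the threshold, 13 lost a call, 7 gained one and 6 changed sign. With edgeR no member was called in either direction, 0 regulators were called in either direction, 1 other target was called higher, and 470 genes were called in all against 930. No member was called higher with TMM factors in DESeq2, without the independent filter or on the sum of the strand-separated columns (0 in each), 2 regulators were called higher with the filter of 10 counts, and 0 regulators lower without the independent filter. With a term for the third replicates, 2 members were called lower, 5 regulators and 4 other targets higher, and 2733 genes in all. In replicates 1 and 2 alone, 4 members were called lower, 4 regulators and 4 other targets higher, 7 other targets lower, and 2621 genes in all.

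Leaving out each library in turn gave 0 to 1 members called higher and 0 to 3 lower, 0 to 4 regulators higher and 0 to 5 lower, 1 to 4 other targets higher and 2 to 7 lower, and 363 to 2854 genes in all. Among these fits, shares of all genes by direction were computed only without empty vector replicate 3 (8.31% higher and 9.46% lower). The counts were therefore not read as results about the lists. The sign of the log2 fold change changed for TEAD1 without empty vector replicate 3 (-0.0047), for CCN2 without empty vector replicate 1 (0.036), and for ANKRD1 without overexpression replicate 1 (0.0013), overexpression replicate 2 (0.02) or empty vector replicate 3 (0.21) and in replicates 1 and 2 alone (0.13). For AMOTL1 it changed without overexpression replicate 2 (-0.01), without empty vector replicate 3 (-0.15) and in replicates 1 and 2 alone (-0.040). Leaving out 1 library gave -0.15 to 0.21 for ANKRD1 and -0.15 to 0.26 for AMOTL1. The range was -0.0047 to 0.155 for TEAD1 and -0.076 to 0.036 for CCN2. The cause was not tested.

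The labels number the replicates 1 to 3 in both groups. The deviations of same-numbered libraries from their group means correlated at 0.0906, 0.142 and 0.349 over 16692 genes. The third replicates correlated best with each other, and each correlated negatively with replicates 1 and 2 of the other group (-0.137 to -0.272). Deviations within a group cancel out for each gene, so these negative values follow in part from the positive one and are not a separate observation. Empty vector replicate 1 correlated best with overexpression replicate 2 (0.212), so the numbers as a whole were not taken to pair the libraries. With the replicate number as a block, DESeq2 called 1 member higher and 2 members lower (AJUBA and AMOTL2, adjusted p = 2.49e-06 and 0.000999). It called 5 of 34 regulators higher and 1826 genes in all, against 930 without the block. Shares of all genes by direction were not computed for this fit, so these counts were not read as results about the lists.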

Other observations

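KRT5, a basal keratin outside the pathway that was named after its values were seen, had normalized counts of 5.05, 11.5 and 279 with the empty vector and 250, 200 and 289 with HMGB2 overexpression. Empty vector replicate 3 thus lay among the overexpression libraries, at a log2 difference of 4.91 from empty vector replicates 1 and 2. It also lay among them for AMOTL2, but there that difference was -0.42, and for HMGB2 it was 0.01. The cause was not tested. KRT14, the usual partner of KRT5, ranged from 421 to 694 over the 6 libraries with overlap between the groups. Neither keratin was called (DESeq2 adjusted p = 0.797 for KRT5 and 0.978 for KRT14).

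KDR, a receptor for vascular endothelial growth factors, had normalized counts of 102, 134 and 97.7 with the empty vector and 57.2, 50.2 and 47.3 with overexpression, without overlap (log2 fold change -1.11, SE 0.26, adjusted p = 0.00115 by DESeq2). The summed level of the 4 endothelial markers was 197 to 214 with the empty vector and 148 to 164 with overexpression. The markers did not move together. Mean normalized counts with the empty vector and with overexpression were 56.7 and 43.0 for VWF, but 37.4 and 51.6 for PECAM1. CDH5, with few reads, had means of 2.44 and 8.48, and only KDR was called.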
